A study of Mus musculus with 18 samples.

Results

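The genes described here are 9 members of the phosphoinositide 3-kinase (PI3K) and FOXO growth control pathway: the insulin receptor substrates Irs1 and Irs2, the PI3K regulatory subunits Pik3r1 and Pik3r2, the catalytic subunits Pik3ca and Pik3cb, the kinase Akt1, and the transcription factors Foxo1 and Foxo3. They were chosen by name, with earlier results of these data known. They were found, with all of their probe sets, through the gene symbols of the array annotation. They carried 25 of the 45037 probe sets tested and are 9 of the 18193 genes with a probe set of a single symbol. Expression was measured on 18 Affymetrix arrays of mouse Hepa-1c1c7 hepatoma cells, an established liver tumor line of a male mouse with a C57BL/6 background per the labels, and of c35 cells, a mutant derivative of that line. The aryl hydrocarbon receptor (AHR), a ligand-activated transcription factor, cannot bind DNA in c35 cells. Wild-type cells received DMSO (the vehicle), TCDD (a dioxin) or BaP (benzo[a]pyrene, a combustion product), and so did c35 cells, for 8 hr and with 3 arrays per group. TCDD was given at 5 nM and BaP at 5 µM, both dissolved in DMSO, and all 6 groups grew in serum-containing medium. The labels of the wild-type TCDD arrays state no dose, and that of the paper was taken. Naive cells are those given DMSO alone. The c35 line differs from wild-type cells by its whole history as a mutant derivative, so the Ahr mutation and other differences between these lines cannot be told apart.

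In this pathway, growth factor receptors such as the insulin receptor phosphorylate IRS adaptors, which recruit PI3K through its regulatory subunit. The catalytic subunit then makes a membrane lipid that brings AKT to the membrane, where it is activated. AKT phosphorylates FOXO factors and keeps them out of the nucleus, which silences genes of cell cycle arrest, stress resistance and, in liver, glucose production. Many of these steps are controlled by phosphorylation and location, which mRNA arrays do not measure.

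The promoters of Pik3r1 and Foxo3 are shown as examples chosen by name, not by a ranking of their ligand responses. Capitals mark the core letters of the AHR response element, GCGTG, read on both strands, so that CACGC marks a match on the other strand and matches may overlap. Sequences are RefSeq windows of GRCm38.p6, each 300 bases long and mostly upstream of a start site, written 5′ to 3′ on the minus strand. Both genes lie on that strand. Pik3r1 occupies chr13:101680761-101768217 and Foxo3 chr10:42181845-42276695.
Pik3r1, start site farthest upstream, chr13:101768168-101768467: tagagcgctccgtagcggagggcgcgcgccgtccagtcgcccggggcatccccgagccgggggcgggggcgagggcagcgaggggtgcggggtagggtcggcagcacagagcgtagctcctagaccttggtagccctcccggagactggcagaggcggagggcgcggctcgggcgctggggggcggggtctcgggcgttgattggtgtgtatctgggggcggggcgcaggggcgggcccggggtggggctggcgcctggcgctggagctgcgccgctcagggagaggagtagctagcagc
Pik3r1, a start site within the gene, chr13:101692581-101692880: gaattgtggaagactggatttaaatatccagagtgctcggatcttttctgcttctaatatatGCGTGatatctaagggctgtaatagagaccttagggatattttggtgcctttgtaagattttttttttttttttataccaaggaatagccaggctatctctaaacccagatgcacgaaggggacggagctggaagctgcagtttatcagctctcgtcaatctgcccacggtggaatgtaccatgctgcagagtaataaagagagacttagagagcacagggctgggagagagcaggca
Foxo3, chr10:42276646-42276945: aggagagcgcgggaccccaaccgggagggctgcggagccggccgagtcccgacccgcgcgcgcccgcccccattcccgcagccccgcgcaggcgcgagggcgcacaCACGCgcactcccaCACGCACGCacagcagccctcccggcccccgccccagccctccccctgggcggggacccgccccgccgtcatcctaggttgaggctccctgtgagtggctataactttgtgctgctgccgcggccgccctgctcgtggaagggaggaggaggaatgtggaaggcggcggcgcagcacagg

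The upstream Pik3r1 window held no match and its internal window held 1, while the Foxo3 window held 3, of which 2 overlap. Of 11 windows of the 9 genes, 9 held the letters (81.8%), against 32.4% of 32851 mouse promoter windows of the same length. A window with 3 or more matches was found in 1 of the 11 (9.09%) and in 3.91% of all windows. G and C made up 43.7% to 79.7% of the members' windows, and their share in all windows was not measured. The part of base composition in these shares of matches was not tested. A match is a description of letters and not a measured binding site.

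AHR target genes checked the treatments. Cyp1a1, the drug-metabolizing enzyme most used as a readout of the receptor, rose by 3.28 (TCDD) and 3.69 (BaP) on the log2 scale in wild-type cells (adjusted p = 0.0217 and 0.00186, limma, n = 3 per group). The model behind these p-values pools the spread of all 6 groups. The SD of Cyp1a1 was 0.05 to 0.11 in the wild-type groups and 0.38 to 2.00 in the c35 groups. Tiparp rose by 2.44 and 2.61, and the quinone reductase Nqo1 by 1.42 and 2.10. In c35 cells no probe set was called with either ligand. A few c35 arrays stood apart within their groups: Cyp1a1 read 8.32 and 8.34 on DMSO replicates 1 and 2 and 8.32 on BaP replicate 3, and 4.87 to 6.23 on the other 6 c35 arrays. Most results that rest on the c35 arrays, including those of Irs2, Pik3ca and Foxo1, are given with all arrays only. Counts of calls between the lines, naive differences of Irs1, Akt1, Pik3r1 and Foxo3, and some interactions are also given without these 3. Leaving them out keeps 1 c35 DMSO array (replicate 3), 3 c35 TCDD arrays and 2 c35 BaP arrays, so every naive difference and every interaction without them rests on a lone c35 DMSO array, which is assumed to vary like the arrays of the other groups. Array correlations were 0.991 to 0.997 within wild-type cells, 0.995 to 0.998 within c35 cells and 0.969 to 0.980 between the lines. The signal of the 3′ Actb control probe set minus that of its 5′ partner, a measure of RNA integrity, was 0.73 to 1.38 on wild-type and 0.30 to 0.53 on c35 arrays and so moved with the line. Its ranges in the lines did not overlap, so a model that includes it cannot separate RNA integrity from the line.

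The labels name the cells as a liver tumor. Alb (albumin) was at 13.64 in naive wild-type and 11.18 in naive c35 cells and Afp (alpha-fetoprotein) at 12.11 and 11.93, while Apoa1 was near the median signal, at 5.85 and 5.97. Of 11 hepatocyte markers measured, 7 or 8 were above the median signal of all probe sets (5.66) in each group. Below it in naive wild-type and naive c35 cells were Fgb (4.02 and 4.98), Cps1 (4.55 and 4.48), Ahsg (5.38 and 5.44) and Apob (5.49 and 5.44). The mean over 5 leukocyte and macrophage markers was 7.02 to 7.32 on wild-type and 7.72 to 7.84 on c35 arrays, and 3 of the 5 were called higher in naive c35 cells. Those were Csf1r (10.73 in naive wild-type and 11.99 in naive c35 cells), Cd14 (9.58 and 10.31) and Cd68 (7.30 and 8.70), while Adgre1 was at 4.94 and 4.87 and the defining leukocyte marker Ptprc at 2.93 and 2.85. The mean over 4 cholangiocyte markers was 7.40 to 7.60 on wild-type and 8.22 to 8.42 on c35 arrays. Of 5 fibroblast markers, 4 were above the median in each group. In naive wild-type and naive c35 cells these read 14.07 and 13.68 (Dcn), 11.76 and 13.04 (Col3a1), 10.55 and 10.31 (Col1a1), and 5.66 and 5.82 (Col1a2). The other, Pdgfra, read 5.31 and 3.72. The part of these cell type markers in the differences between the lines was not tested.

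By the largest difference among a gene's probe sets, the naive lines differed most at Pik3r1, Akt1, Irs1 and Pik3ca. By the brightest probe set they differed most at Akt1 (-1.12), Irs1 (1.11), Pik3ca (0.89) and Irs2 (-0.82), ahead of Pik3r1 (0.78). In naive cells 5 of the 9 genes were called, by their brightest probe set. Pik3r1, Pik3ca and Irs1 were higher in wild-type cells, and Akt1 and Irs2 were higher in c35 cells. A call needs an adjusted p below 0.05 and more than a 1.5-fold change. Of all genes, 7.52% were called higher in wild-type cells and 6.52% lower. Over probe sets, 10 of 25 were called higher and 3 lower, against 8.05% and 6.27% of all probe sets. With TCDD, 4 genes were called higher and 1 lower (8.65% and 6.32% of all genes), since Foxo3 joined the higher genes and Irs2 was no longer called. With BaP the same 5 genes were called (8.98% of all genes higher and 6.83% lower). Probe sets numbered 12 higher and 3 lower with TCDD (8.71% and 6.28%), and 11 and 2 with BaP (9.18% and 6.43%). The median difference over the 9 genes was 0.32 in naive cells, while that over all genes was -0.03. These arrays measured RNA in bulk, so fewer cells of a type and less RNA per cell cannot be told apart. With the 3 c35 arrays of high Cyp1a1 left out, an alternative chosen after seeing the data, 5 genes and 13 probe sets were called in naive cells (with 1 c35 array), 5 and 15 with TCDD, and 5 and 14 with BaP. In naive cells Irs1 then differed by 1.05 and Akt1 1416657_at by -1.04. With this Actb measure of RNA integrity added to the model, 16 probe sets were called in naive cells. The lines given TCDD had 14 calls and those given BaP 14. The shares of all genes and probe sets under these alternatives were not counted.

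**Figure D1:**
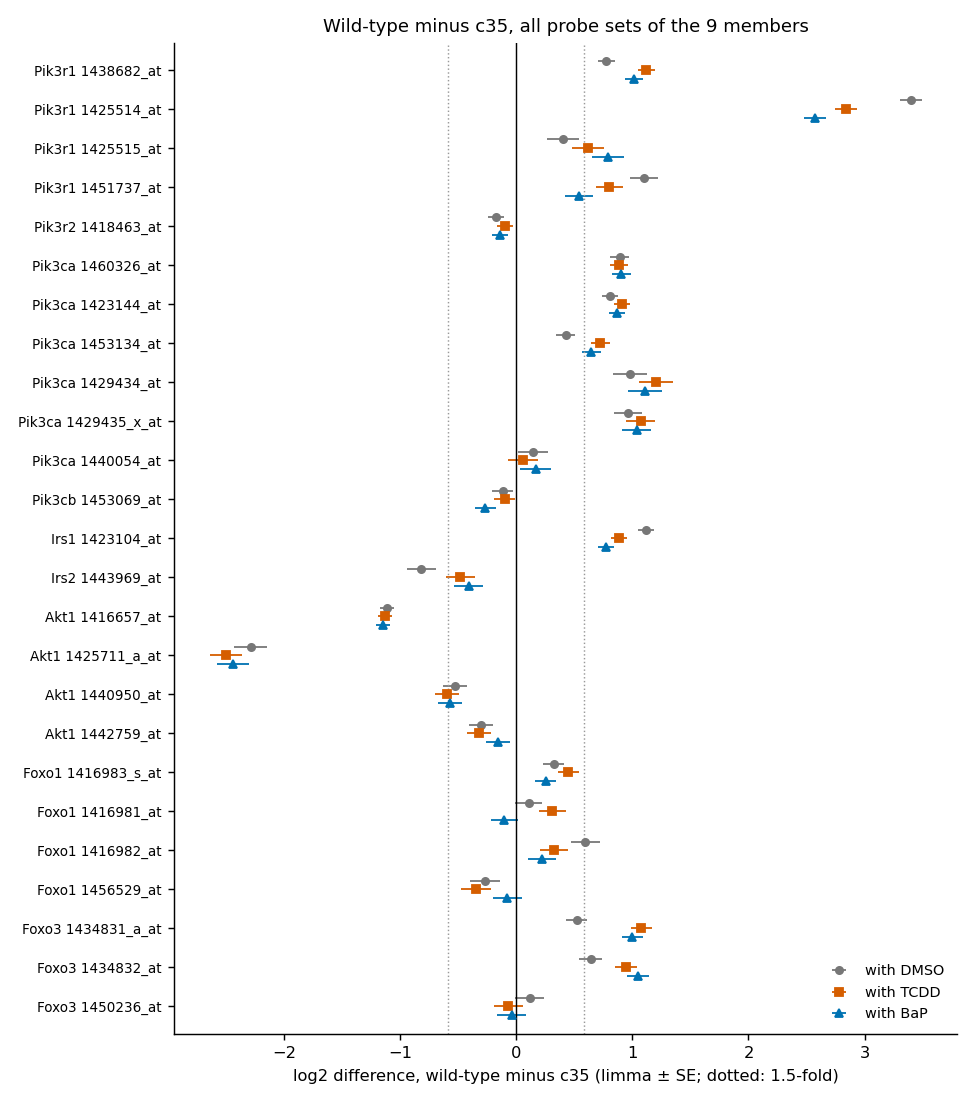
Difference in log2 signal between wild-type and c35 cells for all 25 probe sets, with DMSO (circles), TCDD (squares) or BaP (triangles). Bars are limma standard errors and dotted lines mark a 1.5-fold change. Pik3r1 1425514_at lies farthest to the right, at 3.40 with DMSO, and Akt1 1425711_a_at farthest to the left, at -2.29.

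Irs1 and Irs2, adaptors that pass the insulin and IGF1 signal to PI3K, differed between the lines in opposite directions. Irs1 (1423104_at) read 12.31, 12.07 and 12.06 on the wild-type DMSO arrays, 11.92, 12.00 and 11.91 with TCDD, and 11.83, 11.86 and 11.78 with BaP. In c35 cells it read 11.02, 10.98 and 11.10 with DMSO, 11.07, 11.05 and 11.04 with TCDD, and 11.17, 11.06 and 10.94 with BaP. All wild-type arrays were thus above all c35 arrays, and within wild-type cells the 3 treatments did not overlap. Naive wild-type cells were higher by 1.11 (SE 0.07, 2.17-fold, adjusted p = 8e-11), and the difference was 0.89 with TCDD and 0.77 with BaP. With BaP the wild-type level was 0.32 below DMSO (SE 0.07, adjusted p = 0.00673), a change under 1.5-fold, and with TCDD 0.21 below (adjusted p = 0.21). Without wild-type DMSO replicate 1, the array at 12.31, the TCDD difference was -0.13.

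Irs2 (1443969_at) ran the other way. It read 7.95, 8.06 and 8.19 in naive wild-type cells, 8.21, 8.55 and 8.33 with TCDD, and 8.63, 8.46 and 8.59 with BaP. In c35 cells it read 8.79, 9.03 and 8.83 with DMSO, 8.70, 8.90 and 8.94 with TCDD, and 8.74, 9.33 and 8.82 with BaP. Every c35 array was above every wild-type array. Naive c35 cells were higher by 0.82 (wild-type minus c35 -0.82, SE 0.12, adjusted p = 2.16e-05), and the difference was -0.48 with TCDD (adjusted p = 0.00402) and -0.41 with BaP (adjusted p = 0.0133), both under 1.5-fold. Without c35 BaP replicate 2, the array at 9.33, the last was -0.22. In wild-type cells the BaP level was 0.49 above DMSO (SE 0.12, adjusted p = 0.0237) and the TCDD level 0.29 above (adjusted p = 0.333).

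**Figure D2:**
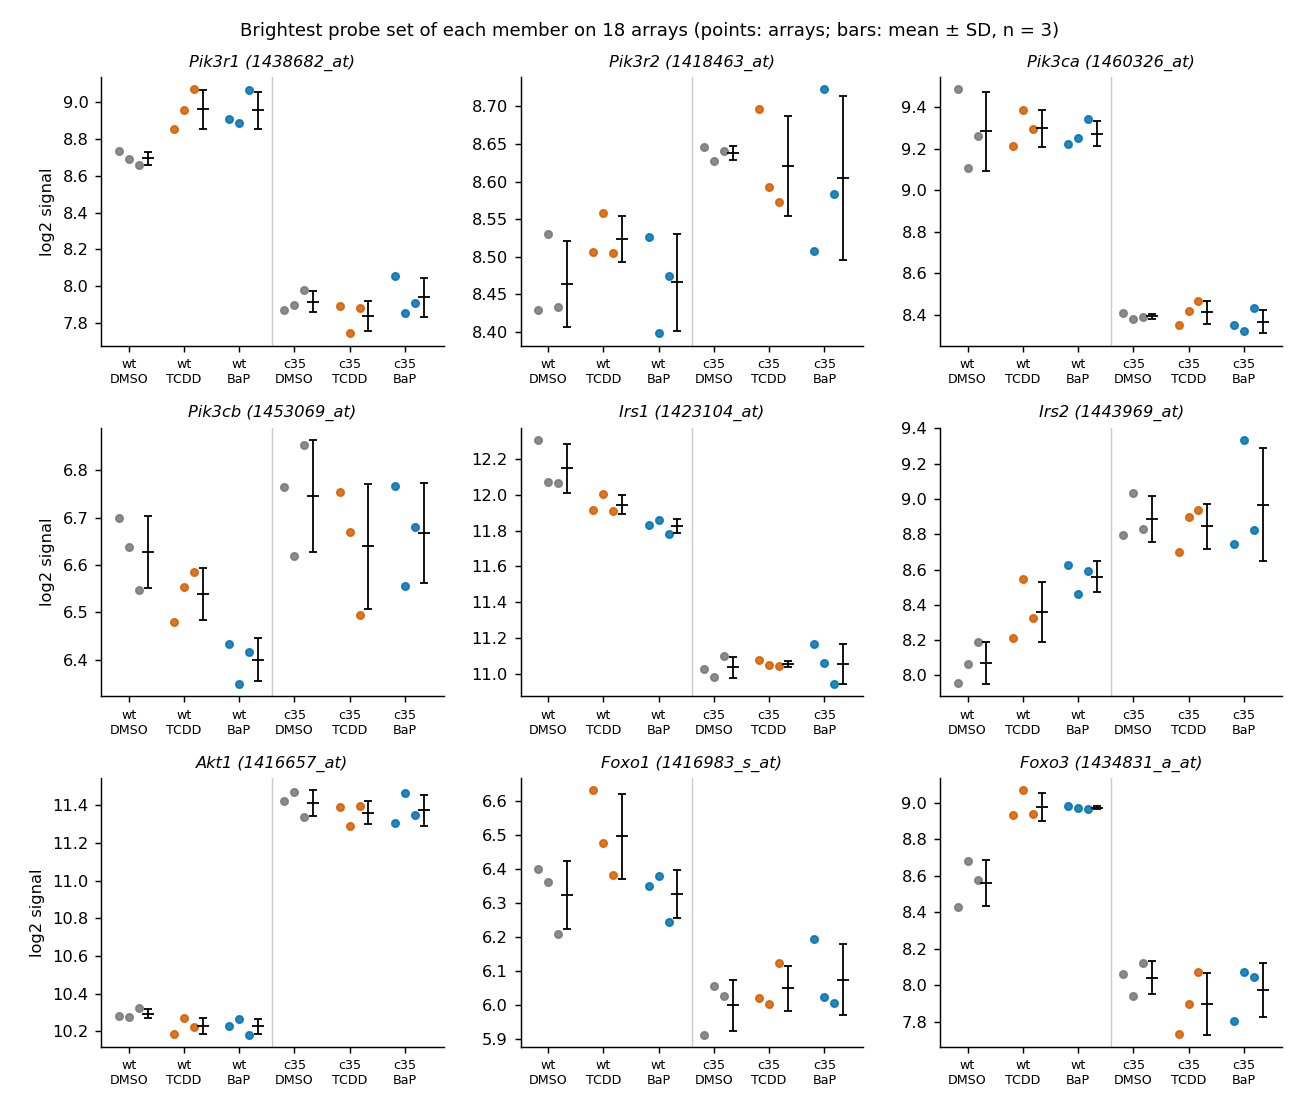
Log2 signal of the brightest probe set of each of the 9 genes on 18 arrays, with wild-type (wt) groups to the left and c35 groups to the right of the grey line; points are arrays and bars the mean ± SD (n = 3), and each panel has its own scale. Wild-type and c35 arrays do not overlap for Pik3r1, Pik3ca, Irs1, Irs2, Akt1, Foxo1 and Foxo3. For Foxo1 the nearest arrays read 6.21 (wild-type) and 6.19 (c35). The lines differed widely, with 44.8% of all genes at an unadjusted p below 0.05 in naive cells (limma). The share of all genes without overlap was not counted.

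Pik3r1 encodes the p85-alpha subunit and shorter proteins made from internal start sites, which hold the catalytic subunit stable and restrain it until a receptor is engaged. Its 4 probe sets did not agree in their response to ligand. The brightest (1438682_at) read 8.73, 8.69 and 8.66 in naive wild-type cells, 8.86, 8.96 and 9.07 with TCDD, and 8.91, 8.89 and 9.07 with BaP. On c35 arrays it read 7.87, 7.90 and 7.98 with DMSO, 7.89, 7.75 and 7.88 with TCDD, and 8.06, 7.86 and 7.91 with BaP. Both ligands thus lay above DMSO on every wild-type array, by 0.27 with TCDD (SE 0.08, adjusted p = 0.136) and 0.26 with BaP (SE 0.08, adjusted p = 0.0557), and neither passed the test.

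The second probe set (1425514_at) went the other way. It read 8.62, 8.63 and 8.46 in naive wild-type cells, 8.19, 8.18 and 8.08 with TCDD, and 7.84, 7.84 and 7.86 with BaP. On c35 arrays it read 5.32, 5.00 and 5.20 with DMSO, 5.14, 5.36 and 5.41 with TCDD, and 5.35, 5.33 and 5.14 with BaP. No 2 wild-type groups overlapped, and BaP lowered it by 0.73 (SE 0.09, adjusted p = 6.53e-05), the only call with a ligand among the 25 probe sets. TCDD left it 0.42 below DMSO (SE 0.09, adjusted p = 0.0392), short of 1.5-fold. The third (1451737_at), designed from the same transcript record, was 0.51 below DMSO with BaP (SE 0.12, adjusted p = 0.0144) and 0.23 below with TCDD (adjusted p = 0.447). The fourth (1425515_at), also from that record, was 0.22 above DMSO with BaP (adjusted p = 0.481) and 0.18 above with TCDD (adjusted p = 0.644). The position of the probes within the transcripts was not used here.

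The 4 probe sets agreed that Pik3r1 was higher in wild-type cells, by very different amounts. In naive cells the difference was 3.40 for 1425514_at (SE 0.09, 10.5-fold, adjusted p = 3.59e-16), 1.10 for 1451737_at (SE 0.12, adjusted p = 2.97e-07), 0.78 for 1438682_at (SE 0.08, adjusted p = 7.12e-08) and 0.40 for 1425515_at (SE 0.14, adjusted p = 0.0284). The last was under 1.5-fold. Without the 3 c35 arrays of high Cyp1a1 these differences, of 3 wild-type arrays against 1 c35 array, were 3.38, 1.07, 0.72 and 0.18, and that of 1425515_at then had an adjusted p of 0.548. With the Actb measure in the model they were 3.28, 1.36, 0.85 and 0.66. The c35 signal of 1425514_at, 5.00 to 5.41, lay below the median signal of all probe sets.

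**Figure D3:**
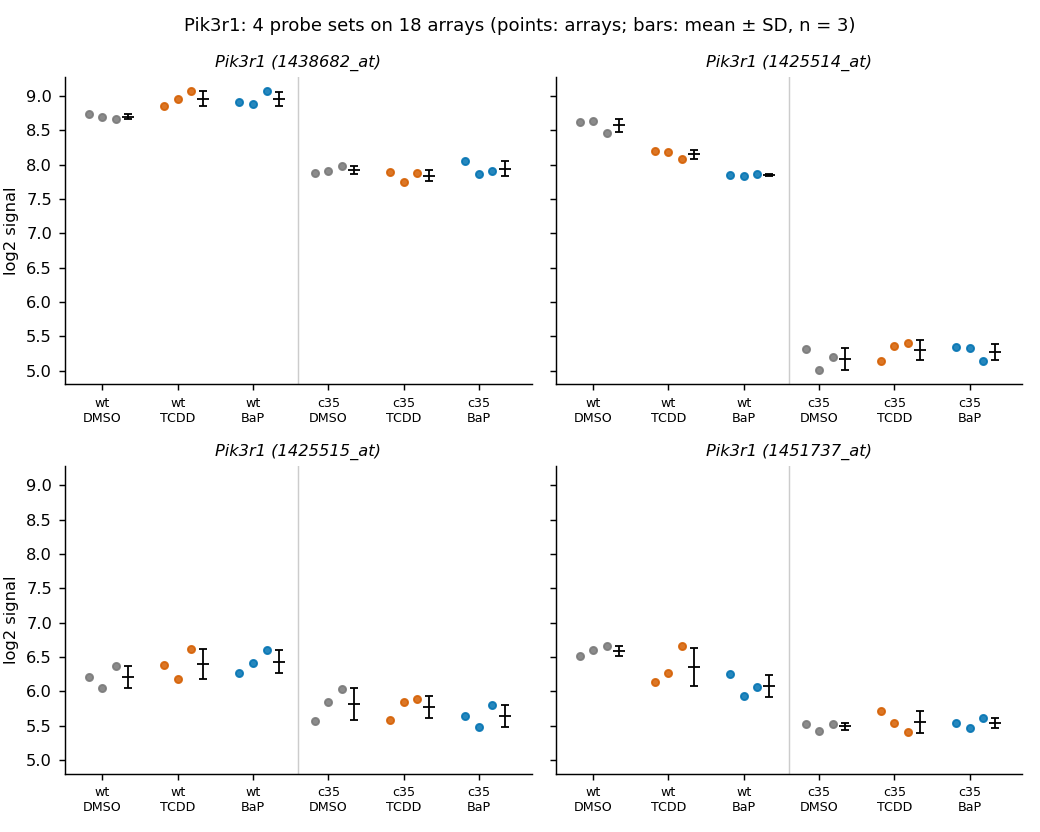
Log2 signal of the 4 Pik3r1 probe sets on 18 arrays, on a shared scale; points are arrays, bars the mean ± SD (n = 3), and the grey line separates wild-type (wt) from c35 groups. In wild-type cells 1425514_at falls from a mean of 8.57 with DMSO to 7.85 with BaP, while 1438682_at goes from 8.69 to 8.95.

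Pik3r2, the gene of the p85-beta subunit, stayed close to one level. Its probe set (1418463_at) read from 8.40 to 8.56 on wild-type and from 8.51 to 8.72 on c35 arrays, and arrays of the lines overlapped only with BaP. The naive difference was -0.17 (adjusted p = 0.0521). TCDD and BaP moved it by 0.06 and 0.00 in wild-type cells.

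Pik3ca, the gene of the p110-alpha catalytic subunit, was higher in wild-type cells at 5 of its 6 probe sets. The brightest (1460326_at) read 9.49, 9.11 and 9.26 in naive wild-type cells and 8.41, 8.38 and 8.39 in naive c35 cells. With TCDD the readings were 9.21, 9.39 and 9.29 against 8.35, 8.42 and 8.46, and with BaP they were 9.22, 9.25 and 9.34 against 8.35, 8.32 and 8.43. The lines did not overlap, and the naive difference was 0.89 (SE 0.08, 1.85-fold, adjusted p = 1.96e-08). The other 4 probe sets with a difference gave 0.43 to 0.98 in naive cells, of which 1453134_at, at 0.43, was under 1.5-fold. The sixth (1440054_at) read 3.90 to 4.50 on all arrays, below the median signal, and differed by 0.15 (adjusted p = 0.44). No Pik3ca probe set moved by more than 0.24 with a ligand in wild-type cells, and none passed the test. Pik3cb, the gene of the p110-beta subunit (1453069_at), read 6.35 to 6.70 on wild-type and 6.49 to 6.85 on c35 arrays. Its naive difference was -0.12 (adjusted p = 0.353), and with BaP it lay 0.23 below DMSO in wild-type cells (adjusted p = 0.173).

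Akt1, the kinase at the centre of the pathway, was lower in wild-type than in c35 cells. The brightest probe set (1416657_at) read 10.28, 10.27 and 10.32 in naive wild-type cells and 11.42, 11.47 and 11.34 in naive c35 cells. Across treatments it stayed between 10.18 and 10.32 in wild-type cells and between 11.29 and 11.47 in c35 cells. The naive difference was -1.12 (SE 0.06, 2.17-fold, adjusted p = 8.06e-12), and it was -1.13 with TCDD and -1.15 with BaP. A second probe set (1425711_a_at) read 7.66, 7.78 and 8.02 in naive wild-type cells and 10.10, 10.07 and 10.16 in naive c35 cells, a difference of -2.29 (SE 0.14, 4.89-fold, adjusted p = 7.16e-11). With the Actb measure in the model that difference was -1.77, and without the 3 c35 arrays of high Cyp1a1, against 1 c35 array, it was -2.34. The remaining probe sets gave -0.53 (1440950_at) and -0.30 (1442759_at). No Akt1 probe set passed the test with a ligand in either line.

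Foxo1 and Foxo3 encode transcription factors that AKT holds out of the nucleus. Foxo3 was higher in wild-type cells at 2 of its 3 probe sets. Its brightest probe set (1434831_a_at) read 8.43, 8.68 and 8.58 in naive wild-type cells, 8.93, 9.07 and 8.94 with TCDD, and 8.98, 8.97 and 8.97 with BaP. On c35 arrays it read 8.06, 7.94 and 8.12 with DMSO, 7.73, 7.90 and 8.07 with TCDD, and 7.81, 8.07 and 8.04 with BaP. Every wild-type array with ligand was above every naive wild-type array, and all of these were above all c35 arrays. TCDD left the wild-type level 0.42 above DMSO (SE 0.09, adjusted p = 0.0358) and BaP left it 0.41 above (SE 0.09, adjusted p = 0.0095). Both changes were below 1.5-fold, at 1.33-fold. The second probe set (1434832_at) was 0.27 (adjusted p = 0.24) and 0.43 above (adjusted p = 0.0095), and the TCDD value was 0.17 without wild-type DMSO replicate 1. The dimmest (1450236_at) read 3.92 to 4.59 on all arrays and was 0.21 below DMSO with TCDD (adjusted p = 0.529) and 0.01 above with BaP in wild-type cells.

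Between the lines, Foxo3 1434831_a_at differed by 0.52 in naive cells (SE 0.09, adjusted p = 0.000115), 1.08 with TCDD (2.11-fold, adjusted p = 7.56e-09) and 1.0 with BaP (adjusted p = 2.23e-08). The naive difference was under 1.5-fold, while that of 1434832_at, 0.64, was above it. Without the 3 c35 arrays of high Cyp1a1 the naive differences, against 1 c35 array, were 0.44 and 0.71. Foxo1 had 4 probe sets, with means from 4.67 to 6.21 over all arrays. The brightest (1416983_s_at) was 0.32 higher in naive wild-type cells (adjusted p = 0.00757), under 1.5-fold, and with the Actb measure in the model the difference was 0.16 (adjusted p = 0.483). Another (1416982_at) was 0.60 higher (adjusted p = 0.000564) and was called in naive cells, a call lost with array weights, quantile normalization, median centring or without c35 DMSO replicate 3 (0.45). The other 2 gave 0.11 and -0.27.

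The question of the ligand comparisons is what each agent did to these genes, and nearly all changes stayed under 1.5-fold. With TCDD in wild-type cells, 0 of 25 probe sets and 0 of 9 genes were called (0.3% of all probe sets, 0.379% of all genes). Without the minimum change, 2 of 25 passed an adjusted p of 0.05 (0.722% of all probe sets), Pik3r1 1425514_at and Foxo3 1434831_a_at, and 6 of 25 had an unadjusted p below 0.05 (12.5% of all probe sets). With BaP, 1 of 25 was called (1.33% of all probe sets), Pik3r1 1425514_at, and 0 of 9 genes by the brightest probe set (1.32% of all genes). Without the minimum, 6 of 25 passed (5.05% of all probe sets): 2 of Pik3r1, 2 of Foxo3, and those of Irs1 and Irs2. An unadjusted p below 0.05 was reached by 9 of 25 (16.5% of all probe sets). TCDD and BaP share the same DMSO arrays. Set against each other, 0 of 25 probe sets and 0 of 9 genes were called (0.238% and 0.258% of all), and Pik3r1 1425514_at was 0.30 higher with TCDD than with BaP (SE 0.09, 95% confidence interval 0.10 to 0.50, adjusted p = 0.133).

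**Figure D4:**
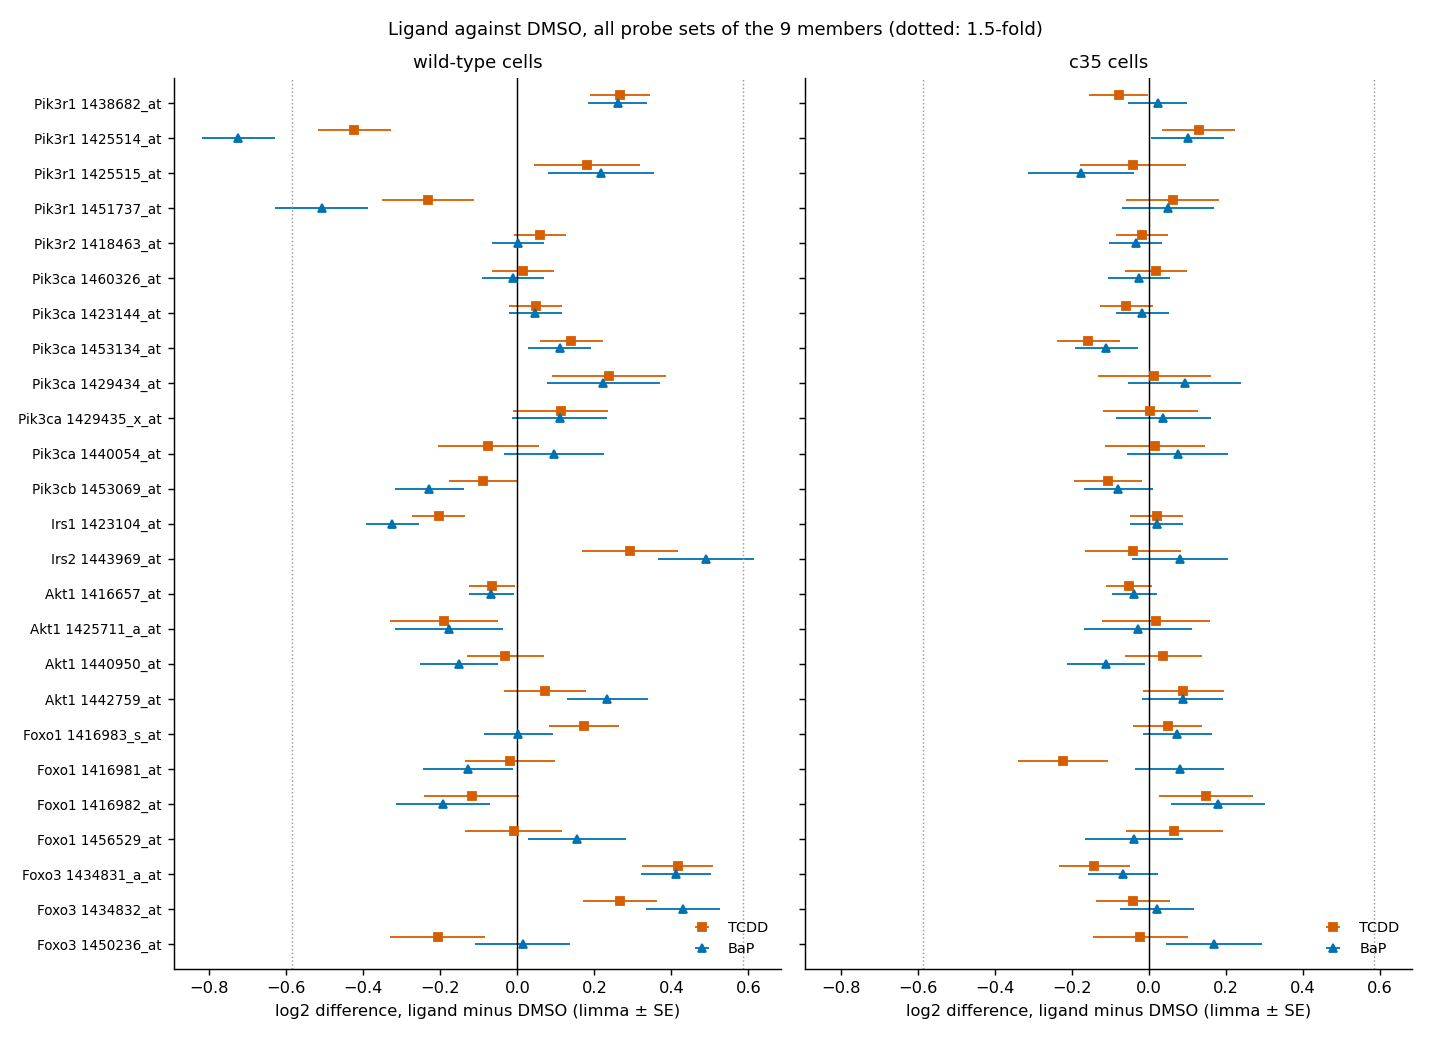
Difference in log2 signal between ligand and DMSO for the 25 probe sets in wild-type cells (left) and c35 cells (right), with TCDD (squares) and BaP (triangles); bars are limma standard errors and dotted lines mark 1.5-fold. In wild-type cells Pik3r1 1425514_at falls furthest, to -0.73 with BaP, and in c35 cells the values stay between -0.22 and 0.18.

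In c35 cells, whose call rule was an adjusted p below 0.1 with no minimum, 0 of 25 probe sets and 0 of 9 genes were called with TCDD or BaP (0% of all probe sets and 0% of all genes). By limma, 0 of 25 had an unadjusted p below 0.05 with either ligand (4.98% of all probe sets with TCDD and 4.06% with BaP). The differences ran from -0.22 to 0.15 with TCDD and from -0.18 to 0.18 with BaP. For Foxo3 1434831_a_at they were -0.14 and -0.07, and for Pik3r1 1425514_at 0.13 and 0.10.

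The difference in response between the lines was tested as an interaction. For BaP, 1 of 25 probe sets was called (1.04% of all probe sets, and 1.66% without the minimum change): Pik3r1 1425514_at, at -0.83 (SE 0.13, adjusted p = 0.00176). Without the 3 c35 arrays of high Cyp1a1 it was -0.87 (adjusted p = 0.0192), with 1 c35 DMSO and 2 c35 BaP arrays left. By the brightest probe set, 0 of 9 genes were called (1.34% of all genes). For TCDD, 0 of 25 probe sets and 0 of 9 genes were called (0.175% of all probe sets, 0.198% without the minimum, and 0.28% of all genes), with 6 of 25 at an unadjusted p below 0.05 (6.91% of all probe sets). Foxo3 1434831_a_at differed in response by 0.56 (TCDD, 95% interval 0.29 to 0.83, adjusted p = 0.104) and 0.48 (BaP, 0.21 to 0.75, adjusted p = 0.071). Without the 3 c35 arrays of high Cyp1a1 the BaP value was 0.59, with 1 c35 DMSO array left. With all arrays, the Foxo3 responses of the lines were thus not shown to differ by the interaction test.

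Other genes of the pathway were read from 6 lists of 121 genes, of which 115 had a probe set of a single symbol. The lists were drawn up with earlier results of these data known. Their shares beside those of all genes are therefore descriptions and cannot show an excess. With TCDD in wild-type cells 2 of 115 were called higher and 1 lower (2.61%, against 0.379% of all genes). Ddit4, an inhibitor of the growth kinase mTOR, rose by 0.67 (SE 0.07, adjusted p = 1.43e-05) and Ccng2, a cyclin linked to cell cycle arrest, by 0.67 (SE 0.12, adjusted p = 0.00797). Gadd45a, a stress and DNA damage response gene, fell by 0.67 (SE 0.09, adjusted p = 0.000433). Of these, Ccng2 and Gadd45a are both known FOXO targets and moved in opposite directions.

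With BaP, 6 of 115 were called higher and 3 lower (7.83%, against 1.32% of all genes). Pik3r3, another regulatory subunit of PI3K, rose by 1.15 (SE 0.25, adjusted p = 0.00816), Ccng2 by 0.99 and Ddit4 by 0.85. Socs3, a brake on cytokine and insulin receptors, rose by 0.72, the growth factor receptor gene Met by 0.70 and the translation repressor gene Eif4ebp1 by 0.59. Gadd45a fell by 0.63, the mitophagy gene Bnip3 by 0.61 and the receptor adaptor gene Grb14 by 0.63. Among 34 FOXO target genes 1 rose and 2 fell, with a median difference of 0.14 against 0.00 over all genes. Of those 34, 18 had an unadjusted p below 0.05 by limma, a larger share than the 19.2% of all genes. TCDD against BaP called 2 of 115, Bnip3 (0.71 higher with TCDD) and Mdm2 (0.60 lower). In c35 cells 0 of 115 were called with either ligand, with 10 (TCDD) and 4 (BaP) at an unadjusted p below 0.05 by limma, against 5.16% and 3.53% of all genes.

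**Figure D5:**
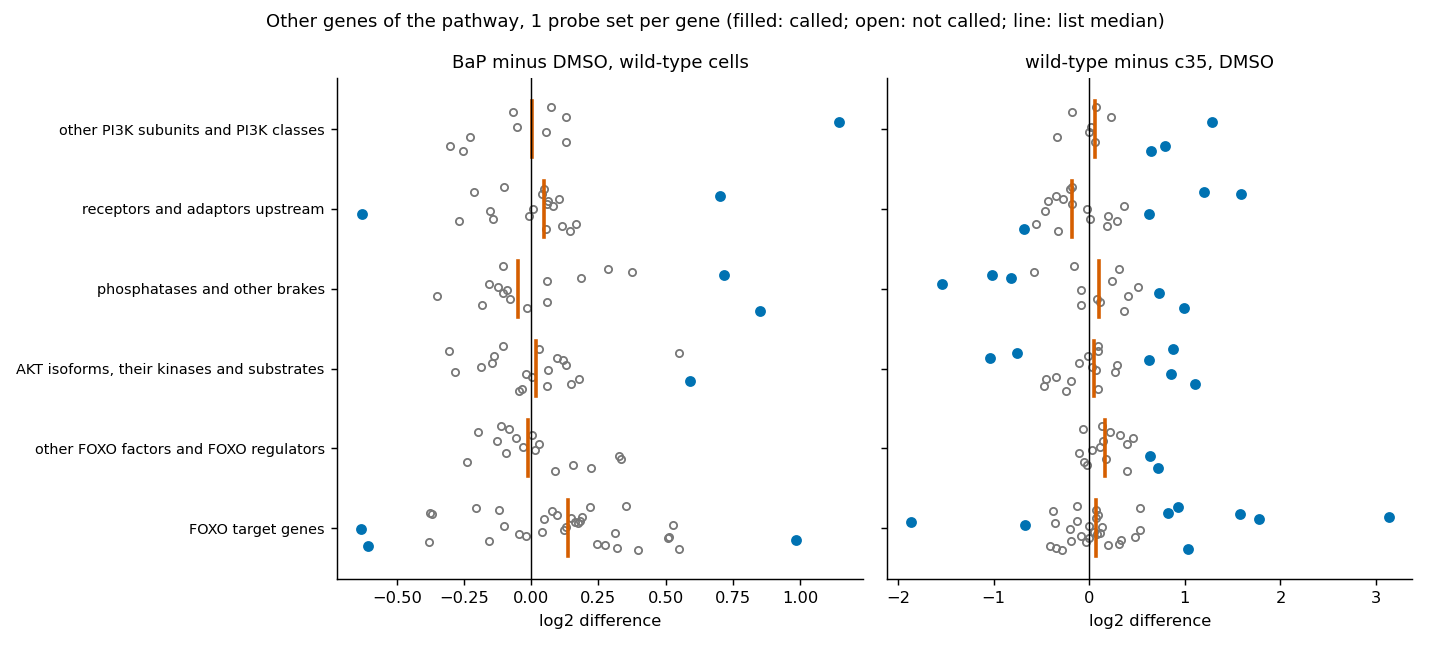
Log2 difference of the other measured pathway genes by list, for BaP against DMSO in wild-type cells (left) and naive wild-type against c35 cells (right); filled points were called, open points were not, and orange lines are list medians. In the right panel Ppargc1a lies farthest right, at 3.13, and Mxi1 farthest left, at -1.87.

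Between naive lines, 20 of 115 were called higher in wild-type cells and 8 lower (24.3%, against 14% of all genes, with list median 0.07 against -0.03 over all genes). Among PI3K subunits and classes, 3 of 10 were called, all higher in wild-type cells: Pik3r3 by 1.29, Pik3c2a by 0.80 and the adaptor gene Pik3ap1 by 0.64. Among 19 receptors and adaptors, Pdgfra (1.59), Pdgfrb (1.20) and Grb14 (0.62) were higher and Egfr lower (-0.69). Among 16 phosphatases and brakes, the lipid phosphatase gene Inpp4a (1.0) and the AKT phosphatase gene Phlpp2 (0.73) were higher, and Socs1 (-0.82), Socs3 (-1.01) and Ppp2r5c (-1.54) were lower. Of 20 AKT isoforms, kinases and substrates, 4 were called higher, led by Deptor (1.11), Sgk3 (0.88) and Gsk3b (0.86), and 2 lower, Sgk1 (-0.76) and Rps6kb2 (-1.03).

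FOXO regulators and targets followed. The deacetylase gene Sirt1 (0.63) and the acetyltransferase gene Ep300 (0.72) were called higher. They are 2 of 16 regulators (12.5%, against 14% of all genes called in either direction). Among 34 FOXO targets, 6 were called higher and 2 lower (23.5%). Ppargc1a, a coactivator of mitochondrial and gluconeogenic genes, was 3.13 higher in wild-type cells (SE 0.13, adjusted p = 2.53e-13), Pdk4, which restrains glucose oxidation, 1.78 and the stress gene Sesn1 1.57. Mxi1 (-1.87) and Klf2 (-0.67) were lower. Pdgfra is also on the fibroblast marker list.

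With TCDD, 23 of 115 pathway genes were called higher in wild-type cells and 7 lower (26.1%, against 15% of all genes), and with BaP 21 and 9 (26.1%, against 15.8%). Among FOXO targets, 8 were called higher and 2 lower with TCDD, and 7 and 3 with BaP. Ppargc1a was again the most different, at 3.56 with TCDD and 3.00 with BaP. With TCDD it was followed by Pdk4 (1.76) and Sesn1 (1.59), and with BaP by Bcl2l11, a promoter of apoptosis (1.65), and Pdk4 (1.57). Mxi1, an antagonist of MYC, was lower at -1.52 with TCDD and -1.65 with BaP, as were Gadd45a (-1.09 and -0.94) and, with BaP, Bnip3 (-1.09). Pik3r3 differed by 2.22 with TCDD and 2.38 with BaP, Ddit4 by 1.06 and 1.24, Deptor by 1.25 and 1.10, Ep300 by 0.91 and 1.03, and Ppp2r5c by -1.52 and -1.74. These comparisons share no arrays with those of naive cells.

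The genes whose signals followed Pik3r1 1438682_at most closely over the 18 arrays were Pdcd4, Heca and Klhl9, with Pearson correlations of 0.987, 0.987 and 0.985. Those for Foxo3 1434831_a_at were Paip2b, Stx17 and Zscan21, at 0.979, 0.978 and 0.974. For Pik3r1 1425514_at, named because it was called with BaP, they were Car2, Fzd1 and Tceal9, at 0.996, 0.995 and 0.995. The arrays fall into 2 lines, which set most of these values: 8.51%, 4.62% and 9.18% of all genes correlated above 0.9 with each of these probe sets.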

How the data were processed

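RNA of 18 samples was measured on Affymetrix Mouse Genome arrays. The log2 signals the authors deposited came from robust multiarray averaging (RMA), a method that corrects background, normalizes between arrays and summarizes probes. Sources used here name no version of it. The values were used as deposited. The 64 Affymetrix controls among 45101 probe sets did not enter the tests. Symbols came from the platform annotation, in which 34945 probe sets had 1 symbol, 932 several and 9160 none, and 2 with several symbols that include a member were not used. A gene is represented by its brightest probe set.

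Group means were estimated from the 18 arrays in 1 linear model by limma 3.58.1 (R 4.3.3) and eBayes with an intensity trend. The Benjamini-Hochberg adjustment ran over 45037 probe sets in each comparison. Calls needed an adjusted p below 0.05 and more than 1.5-fold, or for ligands in c35 cells an adjusted p below 0.1. The named pathway genes are, per list and comparison, the called genes of largest change, up to 3 per direction. For the lines with ligand, the leading ones are printed. The members and lists were chosen with earlier results of these data known. The paper describes the arrays as biological replicates, and their number limits the precision. Groups came from the sample labels. Figures were drawn with matplotlib 3.10.9. Alternatives were another variance trend, array weights, scaling, signal filters, 1 value per gene, covariates, a replicate block, no minimum change and single arrays left out. The fit was tested on simulated data.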

Additional observations from a re-analysis of the deposited data

Results flagged for a closer look

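These values are differences in ligand response between wild-type and c35 cells that passed the interaction test (limma, adjusted p below 0.05, change above 1.5-fold), on the log2 scale. For BaP the response of Pik3r1 1425514_at differed by -0.83. Among other pathway genes with BaP, Ccng2 differed by 1.09, Met by 0.88, Ddit4 by 0.88, Socs3 by 0.70 and Sgk1 by 0.64, and Grb14 by -0.80, Gadd45a by -0.74 and Bnip3 by -0.68. With TCDD, Ccng2 differed by 0.88, Ddit4 by 0.70 and Met by 0.70, and Gadd45a by -0.89. These are 8 of 115 pathway genes with BaP (6.96%, against 1.34% of all genes) and 4 with TCDD (3.48%, against 0.28%). Both ligands share the DMSO arrays of each line. With the 3 c35 arrays of high Cyp1a1 left out, 3 pathway genes were called with BaP and 0 with TCDD, in place of 8 and 4. Those refits have 1 c35 DMSO array, so fewer arrays and the arrays left out cannot be told apart there.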

How the results depend on the processing

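Under 2673 refits of 91 probe set differences with an unadjusted p below 0.05, no called difference changed direction: 2585 kept their call or stayed within the spread between replicates, 11 lost a call, 42 gained one and 35 uncalled values moved further. The cause was not tested. Without the minimum change, member genes called in wild-type cells numbered 1 for TCDD and 3 for BaP, with 8 between lines with BaP, member probe sets 2 (TCDD) and 6 (BaP), and pathway genes 7 (TCDD), 26 (BaP), 9 (TCDD against BaP), and 67, 68 and 71 between lines with DMSO, TCDD and BaP. When probe sets were averaged to 1 value per gene, Pik3r1 was -0.05 with TCDD and -0.19 with BaP, so the sign of 1438682_at turned, and pathway calls were 1 (TCDD against BaP), 16 and 18 (lines with DMSO and TCDD) and 2 (TCDD interaction). Without an intensity trend the TCDD interaction called 2 pathway genes, and with array weights the BaP interaction called 2 member probe sets. Beyond the probe set shares without the minimum change given above, the share of all genes called under the alternatives was not counted. With the 3 c35 arrays of high Cyp1a1 left out, an alternative added after seeing the data that keeps 1 c35 DMSO array, interactions called 0 (TCDD) and 3 (BaP) pathway genes.

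Leaving out each array in turn gave 1 to 2 member probe sets for BaP in wild-type cells, the higher without wild-type BaP replicate 1, which added Pik3r1 1451737_at. It gave 1 to 2 pathway genes for TCDD against BaP, the lower without wild-type TCDD replicate 3 or BaP replicate 2, and 2 to 4 for the TCDD interaction, the lower without wild-type DMSO replicate 3, wild-type TCDD replicate 1 or 3, c35 DMSO replicate 1 or 2, or c35 TCDD replicate 2. For the BaP interaction it gave 0 to 1 member genes and 1 to 2 member probe sets, the higher without c35 BaP replicate 2, which added Irs2. Foxo1 1416982_at between naive lines lost its call with array weights, quantile normalization, median centring or without c35 DMSO replicate 3, and Foxo3 1434832_at lost its own without wild-type DMSO replicate 2 (0.58). Same-numbered arrays of different groups deviated together at correlations of -0.26 to 0.22 (median 0.02), with 8 of 45 above 0.1. Differently numbered arrays gave -0.21 to 0.21 (median -0.02), with 12 of 90 above 0.1. Both lines were pooled in these values, so pairing within a line was not tested. In wild-type cells replicate 1 had the highest Actb measure with DMSO (1.38), TCDD (1.21) and BaP (1.14). With the replicate number as a block, the BaP comparison in wild-type cells called 1 member probe set and the naive lines 13, and no other count of calls left its range of 1.5 times.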
